A study of Homo sapiens with 48 samples.

Results

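The 9 genes described here encode the AP-1 transcription factors of the JUN and FOS families and their relatives BATF and BATF3. They were taken by symbol from a table of read counts for 25066 genes: BATF (Entrez Gene ID 10538), BATF3 (55509), JUN (3725), JUNB (3726), JUND (3727), FOS (2353), FOSB (2354), FOSL1 (8061) and FOSL2 (2355). All 9 were in the table, and 8 passed the filter on low counts that left 13881 genes for testing. FOSL1 did not pass and is described by its reads alone. The counts came from 48 RNA-seq libraries of TMD8 and HBL1, established human cell lines of diffuse large B cell lymphoma, of which the labels say that both carried engineered Cas9. Cells were grown in advanced RPMI with 5% FBS and exposed for 3, 6 or 24 h to NGI-1 at 5 µM, to acalabrutinib at 50 nM, to copanlisib at 20 nM or to the solvent DMSO. Each of the 24 groups had 2 replicates. The labels do not say that these were separate cultures, so the p-values speak of variation between libraries that could be of technical origin alone. No library was taken before exposure, and each compound was used at a single dose. NGI-1 inhibits oligosaccharyltransferase, the enzyme that attaches N-glycans to proteins in the endoplasmic reticulum. Acalabrutinib inhibits the kinase BTK, which acts below the B cell receptor, and copanlisib inhibits PI3K.

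AP-1 proteins are basic leucine zipper (bZIP) factors that bind DNA as dimers. A JUN protein can pair with another JUN protein or with a FOS protein, whereas FOS proteins need a JUN partner. BATF and BATF3 also pair with JUN proteins, and in lymphocytes such dimers bind together with IRF4 or IRF8 at composite DNA elements. In activated B cells several of these genes are switched on through the B cell receptor by MAP kinases and other pathways, and BATF, JUNB and IRF4 are known from lymphoma cells with chronic receptor signalling.

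Promoters of 7 of the 9 genes were found in the RefSeq table for GRCh38.p14, which gives 250 bases before and 50 after each gene's start. The 250 bases before the start are printed 5′ to 3′ for 4 of them. BATF and JUNB are shown because they were lower after a compound in more comparisons than the other members, and JUN and JUND because they hold letters of an AP-1 type motif. Capitals mark matches to TGANNTCA or to TGACG on either strand, and the regions are chr14:75522219-75522468 on the plus strand for BATF, chr19:12791236-12791485 on the plus strand for JUNB, chr1:58784048-58784297 on the minus strand for JUN and chr19:18281623-18281872 on the minus strand for JUND.
BATF: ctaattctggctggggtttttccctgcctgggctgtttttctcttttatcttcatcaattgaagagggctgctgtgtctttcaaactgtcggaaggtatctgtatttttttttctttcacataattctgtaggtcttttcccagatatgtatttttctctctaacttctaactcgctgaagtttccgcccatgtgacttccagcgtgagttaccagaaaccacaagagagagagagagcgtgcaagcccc
JUNB: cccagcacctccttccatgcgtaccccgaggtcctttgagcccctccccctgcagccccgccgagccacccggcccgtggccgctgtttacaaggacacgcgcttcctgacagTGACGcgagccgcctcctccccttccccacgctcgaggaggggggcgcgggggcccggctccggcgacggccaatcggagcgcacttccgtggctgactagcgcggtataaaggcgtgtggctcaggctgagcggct
JUN: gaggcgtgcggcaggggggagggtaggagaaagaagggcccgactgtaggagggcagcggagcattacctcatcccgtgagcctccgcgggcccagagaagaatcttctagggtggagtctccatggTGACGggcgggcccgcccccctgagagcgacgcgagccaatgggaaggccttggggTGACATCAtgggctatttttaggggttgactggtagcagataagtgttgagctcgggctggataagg
JUND: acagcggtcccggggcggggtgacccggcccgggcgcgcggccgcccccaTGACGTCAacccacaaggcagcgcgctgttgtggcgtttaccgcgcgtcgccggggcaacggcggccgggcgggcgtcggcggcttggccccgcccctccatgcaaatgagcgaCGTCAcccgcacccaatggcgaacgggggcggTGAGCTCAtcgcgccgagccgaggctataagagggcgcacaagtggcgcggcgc

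Searched were TGANTCA, the classical AP-1 motif with any base in its centre, TGANNTCA, the variant with 1 base more, and TGACG, which is the left part of the CRE motif and overlaps TGANNTCA where that reads TGACGTCA. JUN held TGACATCA at -67 to -60, counted from the start. JUND held TGACGTCA at -200 to -193 and TGAGCTCA at -54 to -47. TGANNTCA was present in the 250 bases before the start of 10.1% of 35114 promoters. TGACG was present in that window in 21.2% of promoters, and among the members in JUN, JUNB, JUND, FOS, FOSB and FOSL2. The BATF window held neither of them. TGANTCA was absent from all 7 windows before the start, and 6.57% of promoters held it there. With the 50 bases after the start included, FOSL2 held TGACTCA at +5 to +11, and 7.71% of promoters held TGANTCA in that longer window. These matches describe the letters of the window alone.

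Across the 48 libraries, total counts ran from 7165377 to 11999050 reads. Levels below are CPM, read counts scaled to the library's TMM-adjusted total, which are not corrected for gene length, so levels are compared between groups and not between genes. B cell markers were abundant, with 3614 to 8160 CPM summed over MS4A1, CD79A, CD79B, CD22, PAX5, BLNK and CD74. The 8 T and NK cell markers summed to at most 2.645 CPM, and 1 of them, TRAT1, had no read. The 8 myeloid markers summed to 0.5694 to 3.57 CPM, with no read for S100A9, and the 9 stromal and epithelial markers to 9.008 to 44.73 CPM. In TMD8 the last list summed to 9.008 to 22.53 CPM and in HBL1 to 20.92 to 44.73 CPM, and its part in the line differences below was not tested. At 24 h some B cell markers were higher with each compound in each line, in 3 of 7 (NGI-1, HBL1) to 6 of 7 (NGI-1, TMD8), and none was lower. Over all genes 7.53% to 15.6% were called higher at 24 h and 11.4% to 17.7% lower. Of the 6 stromal and epithelial markers that were tested, 2 were higher at 24 h with each compound in TMD8 and 1 in HBL1, and 1 was lower with copanlisib in TMD8. The part of either list in the changes described here was not tested. In such bulk samples, fewer cells expressing a gene and less RNA per cell cannot be told apart.

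Against DMSO of the same line and time, BATF, BATF3, JUN, JUNB and FOSL2 were lower in some comparisons, and no tested member was called higher in the fit described here or with DESeq2. Under other edgeR settings JUND was called higher in some comparisons, with the values given for that gene. Changes were tested with edgeR's quasi-likelihood test at a Benjamini-Hochberg adjusted p under 0.05, and each difference is on the log2 scale with its standard error (SE). Over 6 comparisons of 8 members, NGI-1 gave 11 lower calls of 48, where 4.73% of all gene tests were called lower. Acalabrutinib gave 13 of 48, against 5.56%, and copanlisib 17 of 48, against 8.13%. Over all genes 4.62%, 4.51% and 6.81% of these tests were called higher. The calls were unequally shared: of 18 comparisons, BATF was lower in 12, JUNB in 12, BATF3 in 8, FOSL2 in 5, JUN in 4, and JUND, FOS and FOSB in 0. At an unadjusted p under 0.05, FOS had 6 of 18, all lower, and JUND and FOSB 0, and DESeq2 called none of these 3 genes. The estimated difference of BATF and of JUNB was negative in 18 of 18 comparisons, whereas that of JUND was negative in 6. All 3 compounds were compared with the same DMSO libraries, so their columns in the map of changes against DMSO are not independent.

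**Figure D1:**
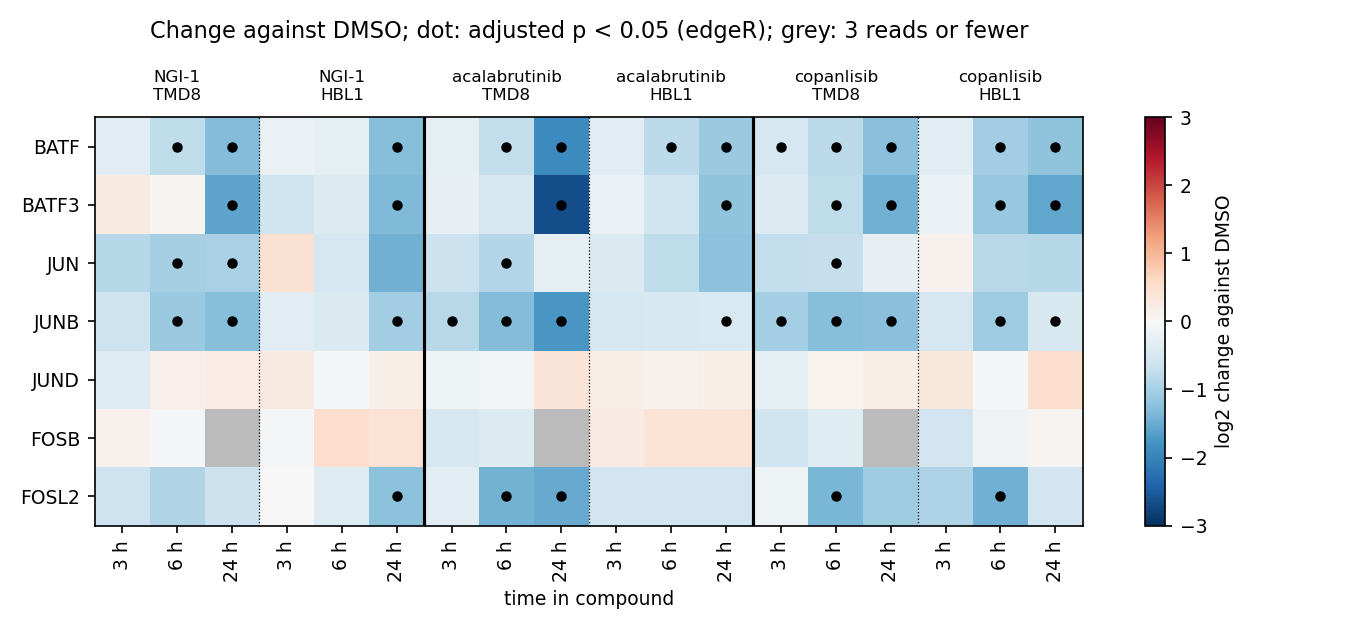
The map shows the log2 change of 7 members (rows) against DMSO for 3 compounds, 2 lines and 3 times (columns), with blue for lower and red for higher. Dots mark an adjusted p under 0.05 (edgeR's quasi-likelihood test), and grey marks FOSB in TMD8 at 24 h, with 3 reads or fewer per group, while FOS, with few reads, is left to the text. BATF and JUNB carry 12 dots each, all on blue cells, and JUND and FOSB none.

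The number of lower members was larger at 24 h than at 3 h with each compound in each line, and so was the share of all genes called lower. With NGI-1 in TMD8 it was 0 of 8 at 3 h, 3 at 6 h and 4 at 24 h, where 0.166%, 1.99% and 14.8% of all genes were called lower. In HBL1 NGI-1 gave 0, 0 and 4, against 0%, 0.072% and 11.4%. At 3 and 6 h NGI-1 in HBL1 thus had few lower calls over all genes and none among the members. With acalabrutinib the numbers were 1, 4 and 4 in TMD8, against 0.339%, 2.8% and 15.5%, and 0, 1 and 3 in HBL1, against 0.195%, 3.16% and 11.4%. With copanlisib they were 2, 5 and 3 in TMD8, against 1.06%, 7.42% and 16%, and 0, 4 and 3 in HBL1, against 1.37%, 5.34% and 17.7%. At 6 h copanlisib thus had more lower members than at 24 h in each line, since JUN and FOSL2 in TMD8 and FOSL2 in HBL1 passed at 6 h and not at 24 h. The effects at 6 and 24 h were not tested against each other. In TMD8 the 6 h calls of JUN and FOSL2 were each lost without 1 library, as given for these genes. FOSL2 in TMD8 at 24 h had few reads, 11 with copanlisib and 25 with DMSO over the libraries of a group. Against the 0 higher members at 3, 6 and 24 h, the shares of all genes called higher were 0.569%, 2.26% and 15.6% in TMD8 and 0.353%, 1.08% and 7.87% in HBL1 with NGI-1. With acalabrutinib they were 0%, 1.7% and 15.3% in TMD8 and 0.0288%, 2.46% and 7.53% in HBL1, and with copanlisib 0.656%, 6.98% and 15.6% in TMD8 and 0.85%, 4.2% and 12.5% in HBL1. The median log2 difference of the 8 members at 24 h lay between -1.26 (NGI-1, HBL1) and -0.66 (copanlisib, TMD8), and that of all genes between -0.02 and 0.01. The TMD8 medians include FOS, with 0 reads in every library at 24 h, and FOSB, with 0 to 2 reads per library. The differences of these genes there carry little or no information.

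BATF was lower in every comparison at 6 and 24 h but 1, NGI-1 in HBL1 at 6 h. This gene encodes a short bZIP factor with no activation domain of its own. In TMD8 its DMSO libraries held 154 and 142 CPM at 3 h, 265 and 237 at 6 h, and 155 and 162 at 24 h. At 24 h NGI-1 left 67.5 and 61.4 CPM, acalabrutinib 42.8 and 41.8, and copanlisib 74.5 and 56.9. Every treated library at 24 h was below every DMSO library, and the acalabrutinib pair was below the other compounds. The log2 differences were -1.30 (SE 0.10, adjusted p = 6.3e-14) for NGI-1, -1.90 (SE 0.10, adjusted p = 8.1e-19) for acalabrutinib and -1.26 (SE 0.10, adjusted p = 8e-14) for copanlisib. On the linear scale 40.7%, 26.7% and 41.6% of the DMSO level remained.

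At 6 h in TMD8 the 3 compounds gave similar BATF levels, 146 and 151 CPM with NGI-1, 142 and 157 with acalabrutinib and 153 and 138 with copanlisib, all below DMSO. The differences were -0.76 (SE 0.09, adjusted p = 1.5e-07), -0.74 (SE 0.09, adjusted p = 1.7e-07) and -0.79 (SE 0.09, adjusted p = 2e-08). These 6 treated libraries were close to the DMSO level at 3 h, while DMSO itself was 0.76 (SE 0.09) higher at 6 h than at 3 h (adjusted p = 2.3e-07). At 3 h NGI-1 gave 123 and 111 CPM and acalabrutinib 118 and 122, all below DMSO, and neither passed. The NGI-1 change (adjusted p = 0.11) did pass with the lines fitted separately (-0.34, adjusted p = 0.041). Copanlisib alone passed at 3 h in the fit used here, with 105 and 105 CPM and a difference of -0.50 (SE 0.10, adjusted p = 0.0011). Without TMD8 DMSO 3 h replicate 1 that difference was -0.44 (adjusted p = 0.066), whereas the other 11 BATF calls against DMSO remained without any 1 library.

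In HBL1, BATF in DMSO was steady, at 122 and 109 CPM at 3 h, 121 and 110 at 6 h, and 123 and 107 at 24 h. With NGI-1 the levels were 104 and 97.3, then 98.4 and 89.2, then 48.8 and 45.4 CPM, so that the call came at 24 h alone (-1.29, SE 0.10, adjusted p = 6.8e-13). The kinase inhibitors lowered BATF by 6 h. Acalabrutinib gave 64.9 and 69.1 CPM at 6 h (-0.78, SE 0.10, adjusted p = 3.9e-07) and 46.9 and 58.4 at 24 h (-1.12, SE 0.10, adjusted p = 2.2e-11). Copanlisib gave 53.2 and 58 CPM at 6 h (-1.05, SE 0.10, adjusted p = 1.6e-10) and 48.2 and 52.1 at 24 h (-1.20, SE 0.10, adjusted p = 1.4e-12). At 3 h no compound passed in HBL1 (-0.20, -0.31 and -0.34, lowest adjusted p = 0.051, for copanlisib), although neither treated library of any of them reached the lower DMSO library. The copanlisib change passed with DESeq2 and with RLE size factors (adjusted p = 0.042 each), without the filter on low counts (0.03) and with a stricter filter (0.032).

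**Figure D2:**
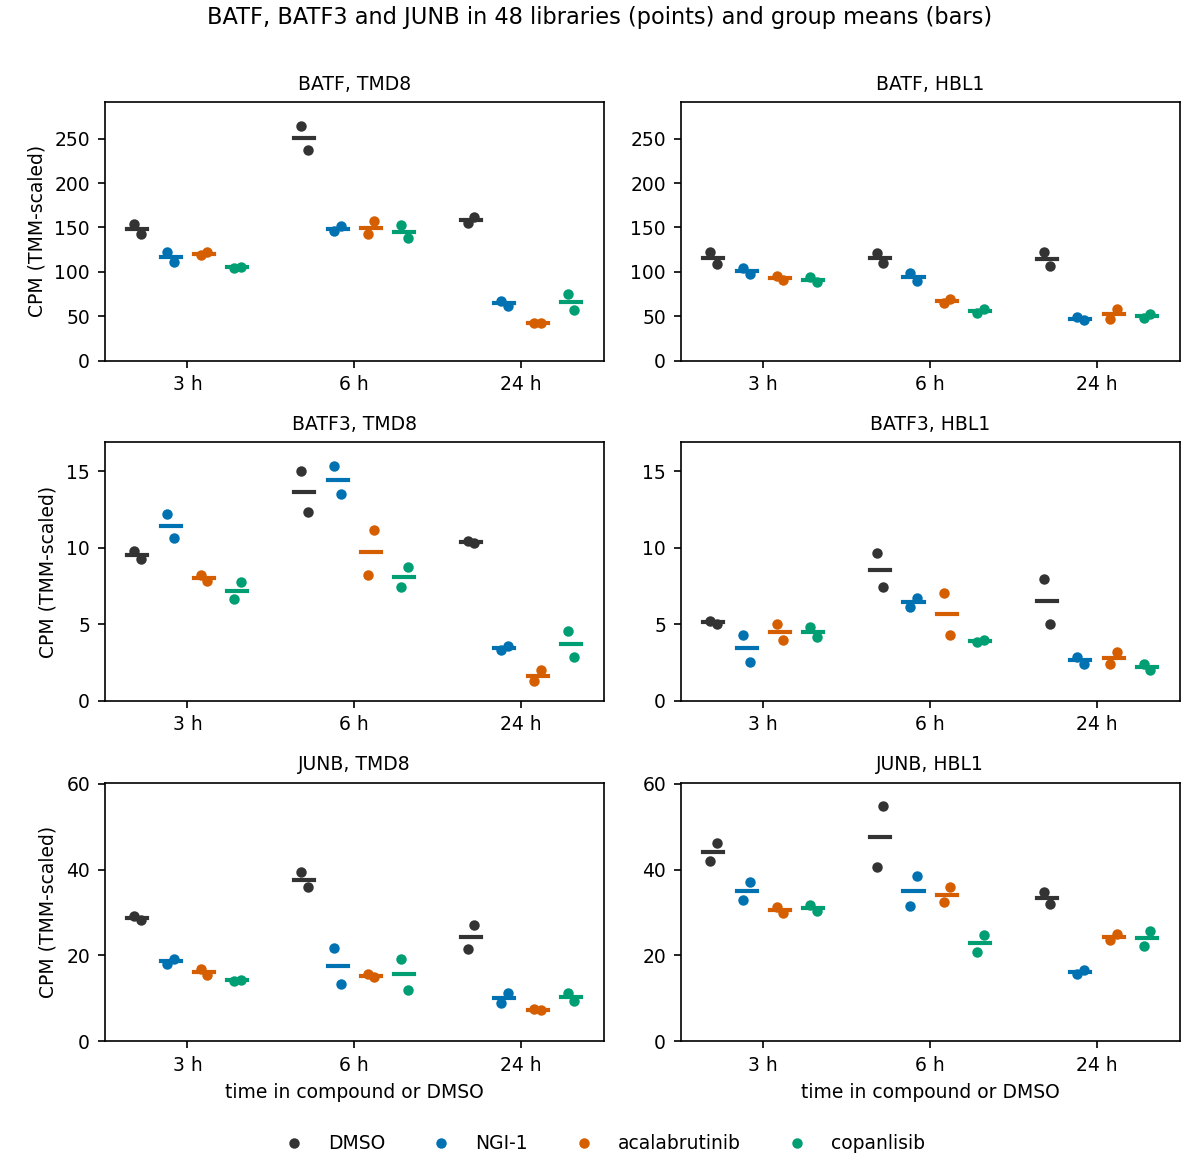
CPM (vertical axis, from 0) of BATF, BATF3 and JUNB at 3, 6 and 24 h in TMD8 (left) and HBL1 (right). Points are libraries, bars are means of 2, and colours are treatments. At 24 h all 6 treated libraries lie below the DMSO libraries for each gene in each line, and BATF in TMD8 with DMSO stands higher at 6 h than at 3 or 24 h.

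BATF3, a relative of BATF best known from dendritic cells, was lower in all 6 comparisons at 24 h and with copanlisib at 6 h in each line. Its TMD8 DMSO libraries held 9.77 and 9.25 CPM at 3 h, 15 and 12.3 at 6 h, and 10.4 and 10.3 at 24 h. At 24 h NGI-1 left 3.33 and 3.56 CPM, acalabrutinib 1.28 and 1.99, and copanlisib 4.57 and 2.90, with no overlap with DMSO. The difference with acalabrutinib was -2.66 (SE 0.32, adjusted p = 4.6e-10), to 15.8% of the DMSO level, and rested on 12 and 18 reads per treated library. NGI-1 gave -1.58 (SE 0.26, adjusted p = 2.9e-06) and copanlisib -1.45 (SE 0.25, adjusted p = 8.5e-06).

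NGI-1 gave no early call for BATF3 in TMD8. With NGI-1 the gene was at 12.2 and 10.7 CPM at 3 h, above both DMSO libraries (0.26, SE 0.22, adjusted p = 0.91), and at 15.4 and 13.5 at 6 h, overlapping the DMSO pair (0.08, SE 0.20, adjusted p = 0.93). Copanlisib at 6 h gave 7.46 and 8.73 CPM (-0.75, SE 0.21, adjusted p = 0.011), and BATF3 was then lower with copanlisib than with NGI-1 (-0.83, SE 0.21, adjusted p = 0.0092). Each of these 6 h calls was lost without 1 library: the first without TMD8 DMSO 6 h replicate 1 or copanlisib 6 h replicate 1 (adjusted p 0.12 to 0.18), the second without copanlisib 6 h replicate 1 or NGI-1 6 h replicate 1 (0.12 to 0.14).

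In HBL1, BATF3 in DMSO was at 5.21 and 5.04 CPM at 3 h, 9.63 and 7.47 at 6 h, and 7.97 and 5.05 at 24 h. All treated libraries at 24 h were lower, with 2.84 and 2.43 CPM for NGI-1 (-1.31, SE 0.29, adjusted p = 5.1e-04), 2.44 and 3.19 for acalabrutinib (-1.21, SE 0.28, adjusted p = 0.0011) and 2.37 and 2.04 for copanlisib (-1.57, SE 0.30, adjusted p = 3.3e-05). At 6 h copanlisib alone passed, at 3.86 and 3.98 CPM (-1.13, SE 0.26, adjusted p = 0.0017). The higher DMSO replicate 1 mattered here. Without it, the 24 h calls of NGI-1 (-0.93, adjusted p = 0.082) and acalabrutinib (-0.83, adjusted p = 0.13) and the 6 h call of copanlisib (-0.93, adjusted p = 0.07) were lost.

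JUNB, a JUN protein that pairs with BATF and FOS proteins, was called in TMD8 from 3 h on. Its TMD8 DMSO libraries held 29.1 and 28.3 CPM at 3 h, 39.3 and 36.0 at 6 h, and 21.5 and 27.2 at 24 h. At 3 h NGI-1 gave 18 and 19.2 CPM (-0.63, SE 0.17, adjusted p = 0.084), acalabrutinib 16.8 and 15.5 (-0.83, SE 0.18, adjusted p = 0.01) and copanlisib 13.9 and 14.3 (-1.02, SE 0.18, adjusted p = 1.8e-04). None of the 6 treated libraries reached the DMSO libraries, although NGI-1 missed the threshold, which it passed without the filter on low counts (adjusted p = 0.008). The acalabrutinib call at 3 h was lost without either TMD8 DMSO 3 h library or either acalabrutinib 3 h library (adjusted p 0.062 to 0.38), and the copanlisib call was not lost without any library.

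At 6 h in TMD8 the JUNB levels were 21.8 and 13.3 CPM with NGI-1 (-1.11, SE 0.17, adjusted p = 9.3e-06), 15.6 and 15 with acalabrutinib (-1.30, SE 0.17, adjusted p = 3.7e-07) and 19.2 and 12 with copanlisib (-1.29, SE 0.17, adjusted p = 1.7e-07). At 24 h they were 8.97 and 11.1 (-1.28, SE 0.19, adjusted p = 6.1e-07), 7.36 and 7.29 (-1.74, SE 0.20, adjusted p = 1.6e-09), and 11.2 and 9.29 (-1.24, SE 0.19, adjusted p = 8.4e-07). Acalabrutinib left 30.0% of the DMSO level of JUNB at that time, NGI-1 41.2% and copanlisib 42.3%.

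HBL1 libraries with DMSO held 42.1 and 46.3 CPM of JUNB at 3 h, 40.6 and 54.8 at 6 h, and 34.9 and 31.9 at 24 h. At 3 h the treated libraries ran from 30.0 to 37.0 CPM, all below DMSO, with differences of -0.33 (NGI-1), -0.53 (acalabrutinib) and -0.51 (copanlisib) and a lowest adjusted p of 0.067. Without the filter on low counts JUNB passed at 3 h with acalabrutinib (adjusted p = 0.023) and copanlisib (0.0096). At 6 h copanlisib alone passed, with 20.8 and 24.8 CPM (-1.06, SE 0.16, adjusted p = 3.9e-06). NGI-1 was then at 31.6 and 38.4 (-0.44, SE 0.15, adjusted p = 0.2) and acalabrutinib at 32.3 and 36.0 (-0.48, SE 0.15, adjusted p = 0.053), a change that passed with RLE size factors, without the filter on low counts, with a stricter filter and with the lines fitted separately (0.014 to 0.049). By 24 h NGI-1 had the lowest level, 15.7 and 16.5 CPM (-1.05, SE 0.17, adjusted p = 9.9e-06). Acalabrutinib gave 23.7 and 25.0 (-0.46, SE 0.16, adjusted p = 0.04) and copanlisib 22.3 and 25.7 (-0.48, SE 0.16, adjusted p = 0.019), with no overlap with DMSO. These smaller changes were less stable. The acalabrutinib call was lost without any of its 4 libraries (adjusted p 0.062 to 0.25), with DESeq2 (0.077), with RLE size factors (0.054) and with a stricter filter (0.064), and the copanlisib call without HBL1 DMSO 24 h replicate 1 or copanlisib 24 h replicate 1 (0.15 to 0.19).

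JUN, the founding member of the family and the usual partner of FOS, passed in 4 TMD8 comparisons and in no HBL1 comparison. Which of its changes passed depended on the settings of the fit. A difference between the lines in its response did not pass, whereas without the filter on low counts that of NGI-1 at 3 h did (-1.30, adjusted p = 7.2e-04). In TMD8 with DMSO it was at 58.1 and 39.3 CPM at 3 h, 79.7 and 65.4 at 6 h, and 27.5 and 24.6 at 24 h. At 3 h the treated libraries ran from 23.1 to 35.1 CPM, all below DMSO, and none of the differences of -0.86 (NGI-1), -0.65 (acalabrutinib) and -0.74 (copanlisib) passed (lowest adjusted p = 0.16). Without the filter on low counts all 3 were called lower (adjusted p of 1.2e-06, 0.0013 and 3.6e-05), and the NGI-1 change also without edgeR's robust option (0.049). At 6 h NGI-1 gave 36.4 and 36.5 CPM (-0.99, SE 0.24, adjusted p = 0.011), acalabrutinib 44.3 and 35.0 (-0.87, SE 0.23, adjusted p = 0.026) and copanlisib 47.8 and 42.6 (-0.68, SE 0.23, adjusted p = 0.045). At 24 h NGI-1 was at 13.6 and 13.0 CPM (-0.97, SE 0.28, adjusted p = 0.0084), while acalabrutinib, at 25.2 and 18.2 (-0.26, SE 0.26, adjusted p = 0.49), and copanlisib, at 23.9 and 20.0 (-0.24, SE 0.26, adjusted p = 0.53), did not pass. Set directly against NGI-1 at 24 h in TMD8, JUN passed with neither acalabrutinib (adjusted p = 0.4) nor copanlisib (0.36). Without the filter on low counts JUN was higher than with NGI-1 for both (0.70, adjusted p = 0.0029, and 0.74, adjusted p = 0.0011). Each of the 4 JUN calls was lost without 1 library. The NGI-1 call at 6 h needed TMD8 DMSO 6 h replicate 1 and both NGI-1 libraries (adjusted p 0.099 to 0.2 without 1 of them), that of acalabrutinib the same DMSO library and both acalabrutinib libraries (0.055 to 0.32), that of copanlisib all 4 libraries (0.057 to 0.3), and the NGI-1 call at 24 h TMD8 DMSO 24 h replicate 1 and NGI-1 24 h replicate 2 (0.059 to 0.061). DESeq2 gave 0.1 and 0.15 for the 6 h changes of JUN with acalabrutinib and copanlisib.

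HBL1 libraries held 11 to 104 reads of JUN, and 18 to 100 of BATF3, which was called there. Why JUN was not called there was not tested. At 24 h DMSO had 4.38 and 3.01 CPM, NGI-1 1.37 and 1.39, acalabrutinib 1.28 and 1.85, and copanlisib 1.58 and 2.61, so that no treated library reached the DMSO pair. The differences were -1.43 (SE 0.60, adjusted p = 0.079), -1.24 (SE 0.58, adjusted p = 0.12) and -0.86 (SE 0.53, adjusted p = 0.23), none of which passed with edgeR. DESeq2 called the first (adjusted p = 0.017) and the second (0.042), and a fit without the filter on low counts called all 3 (5.5e-04 to 0.043), so the absence of JUN calls in HBL1 depends on the test. At 6 h that fit also called JUN lower with acalabrutinib (-0.77, adjusted p = 0.037) and copanlisib (-0.82, adjusted p = 0.015). With the robust option left out of edgeR the first passed as well (0.04). Replicate 2 was higher than replicate 1 for JUN, JUND and FOSB in 4 of 4 HBL1 groups at 3 h and in 4 of 4 at 6 h, as in DMSO at 3 h, where JUN was at 3.68 and 7.56 CPM.

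JUND, a JUN protein that is expressed in many resting cells, passed in no comparison with DMSO with the settings used here, and in some under other settings. In TMD8 the DMSO libraries held 68.9 and 76.2 CPM at 3 h, 40.9 and 34.4 at 6 h, and 33.8 and 35.5 at 24 h. Treated TMD8 libraries ran from 47.2 to 72 CPM at 3 h, from 32.9 to 44.5 at 6 h and from 37.0 to 46.3 at 24 h. At 24 h the 6 treated libraries were all above the DMSO pair, with differences of 0.22 (NGI-1), 0.39 (acalabrutinib) and 0.19 (copanlisib), an SE of 0.26 each and adjusted p of 0.28 to 0.64. The same held in HBL1 at 24 h, where DMSO had 51.4 and 52.5 CPM and the treated libraries 56 to 75.8. The largest of these differences, 0.50 (SE 0.24) with copanlisib, had an adjusted p of 0.13. Without the filter on low counts this difference was called higher (0.54, adjusted p = 2.1e-05), as was that of acalabrutinib in TMD8 (0.37, adjusted p = 0.014), which also passed with the lines fitted separately (0.40, adjusted p = 0.015). With DESeq2 neither passed.

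**Figure D3:**
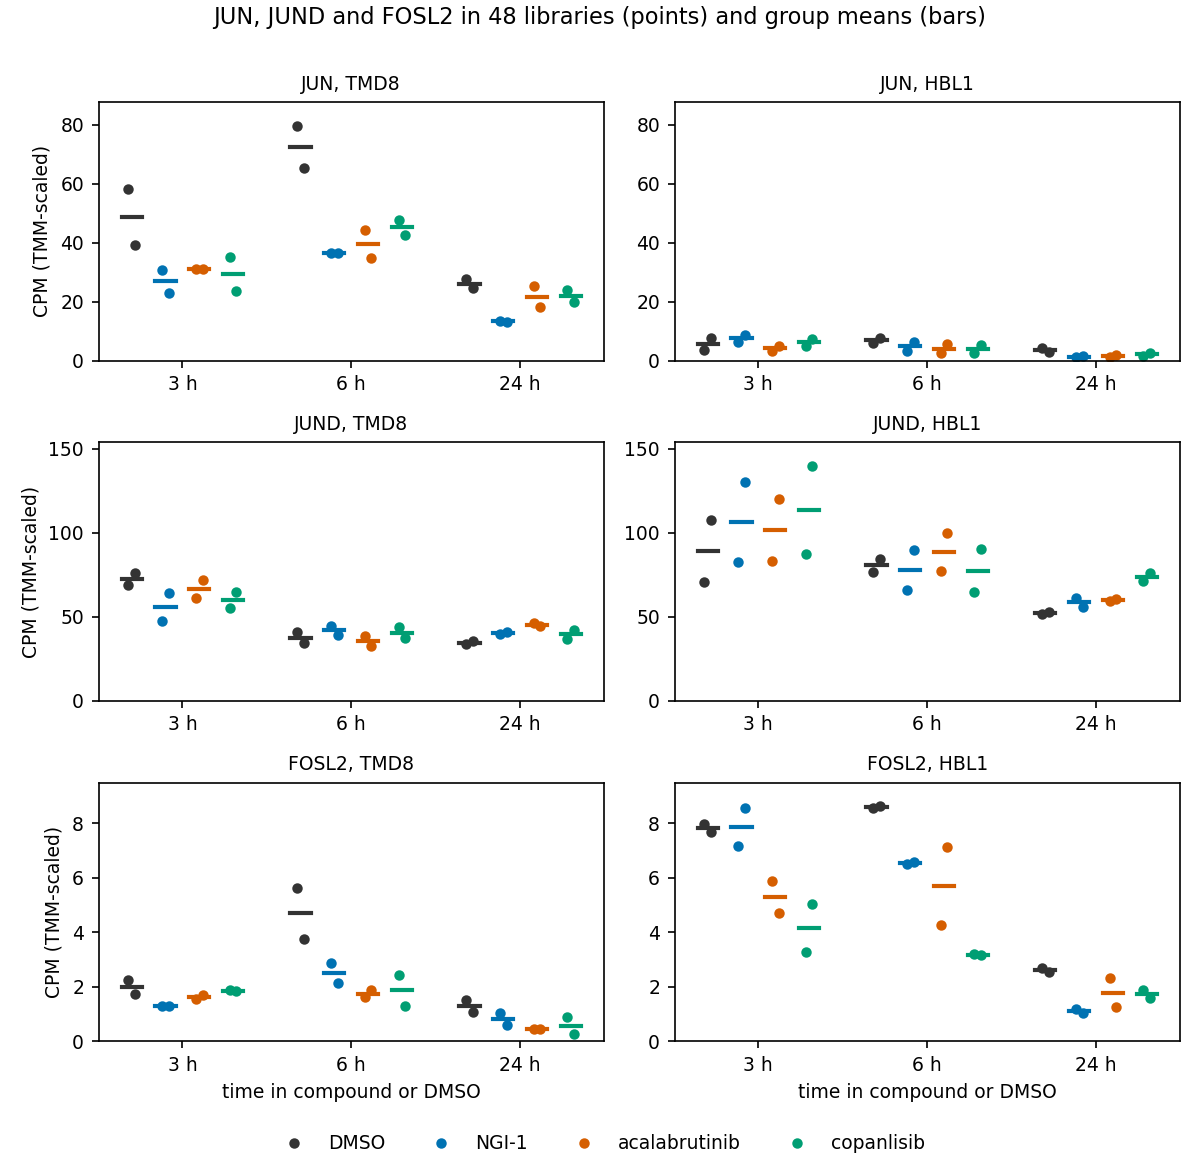
CPM (vertical axis, from 0) of JUN, JUND and FOSL2 at 3, 6 and 24 h in TMD8 (left) and HBL1 (right), with libraries as points, means of 2 as bars and treatments as colours. JUN lies far higher in TMD8 than in HBL1 and FOSL2 higher in HBL1, and JUND shows treated libraries above DMSO at 24 h.

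FOSL2 encodes FRA2, a FOS protein without the strong activation domain of FOS, and its lower calls lay at 6 and 24 h. In TMD8 with DMSO it was at 2.23 and 1.73 CPM at 3 h, 5.63 and 3.74 at 6 h, and 1.51 and 1.05 at 24 h. At 6 h the kinase inhibitor groups lay below DMSO, with 1.63 and 1.86 CPM for acalabrutinib (-1.42, SE 0.35, adjusted p = 0.0056) and 2.41 and 1.30 for copanlisib (-1.36, SE 0.34, adjusted p = 0.0025). With NGI-1 FOSL2 was at 2.86 and 2.14 CPM, also below both DMSO libraries, and did not pass (-0.91, SE 0.32, adjusted p = 0.099). Set directly against NGI-1 at 6 h in TMD8, FOSL2 passed with neither kinase inhibitor. At 24 h acalabrutinib left 0.43 and 0.44 CPM, 4 reads in each library (-1.52, SE 0.60, adjusted p = 0.031). These are small counts. The acalabrutinib call at 6 h was lost without TMD8 DMSO 6 h replicate 1 or either acalabrutinib 6 h library (adjusted p 0.064 to 0.23), the copanlisib call without that DMSO library or copanlisib 6 h replicate 2 (0.12 to 0.14), and the 24 h call without TMD8 DMSO 24 h replicate 1 or either acalabrutinib 24 h library (0.12 to 0.19) and with DESeq2 (0.056).

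In HBL1 the FOSL2 level in DMSO was 7.96 and 7.66 CPM at 3 h, 8.57 and 8.62 at 6 h, and 2.69 and 2.52 at 24 h. Copanlisib at 6 h gave 3.18 and 3.16 CPM (-1.44, SE 0.29, adjusted p = 3.5e-04), to 36.9% of DMSO, and this call remained without any 1 library. Copanlisib at 3 h gave 3.28 and 5.05 CPM, below both DMSO libraries, and did not pass (-0.92, SE 0.27, adjusted p = 0.059), although it did without the filter on low counts and with a stricter filter (0.04 each). At 24 h NGI-1 passed, with 1.16 and 1.04 CPM or 11 and 9 reads (-1.24, SE 0.42, adjusted p = 0.024). That call was lost without any of its 4 libraries (adjusted p 0.057 to 0.13) and with DESeq2 (0.051).

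FOS, the classical immediate early gene of the family, and FOSB, its close relative, were present at few reads. Neither passed in a comparison with DMSO with the settings used here, and FOS did with NGI-1 under a replicate block. In the 8 TMD8 libraries at 3 h FOS had 12 to 29 reads, at 6 h 4 to 17, and at 24 h 0 in all of them. Pooled over treatments this is 159, 70 and 0 reads. In HBL1 it had 52, 37 and 23 reads over 8 libraries at these times. At TMD8 3 h the FOS reads were 22 and 28 with DMSO, 21 and 29 with NGI-1, 17 and 15 with acalabrutinib, and 15 and 12 with copanlisib. The kinase inhibitor pairs were lower than the DMSO pair there (-0.77, SE 0.46, adjusted p = 1 and -1.04, SE 0.48, adjusted p = 0.37), and NGI-1 overlapped with it. At HBL1 24 h DMSO had 6 and 6 reads and NGI-1 1 and 1, a ratio of DMSO to NGI-1 of 5.93 with an exact 95% interval of 1.32 to 54.5 that covers counting error alone.

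FOSB had 247, 121 and 9 reads over the 8 TMD8 libraries at 3, 6 and 24 h, and 268, 162 and 57 in HBL1. Its difference from DMSO at 3 and 6 h ran from -0.60 (copanlisib, TMD8, 3 h) to 0.53 (NGI-1, HBL1, 6 h), with an SE of 0.42 to 0.56. FOSL1, which encodes FRA1, had 0 to 7 reads per library, 43 in TMD8 and 37 in HBL1 over 24 libraries each. No fold is given for it.

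**Figure D4:**
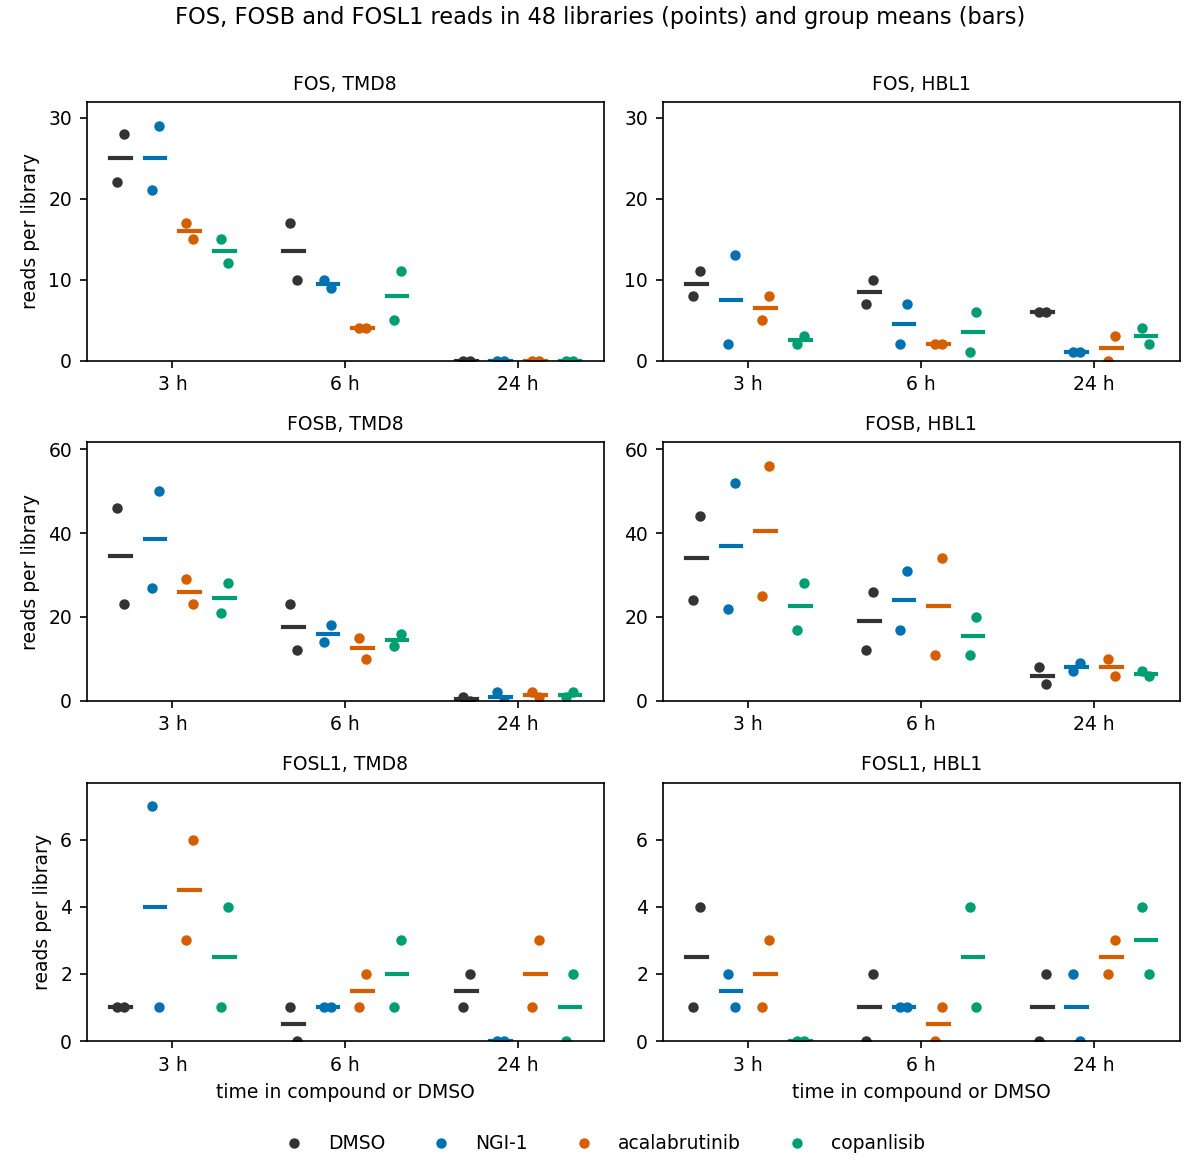
Reads per library (vertical axis, from 0) of FOS, FOSB and FOSL1 at 3, 6 and 24 h in TMD8 (left) and HBL1 (right), with libraries as points, means of 2 as bars and treatments as colours. FOS falls to 0 reads in all 8 TMD8 libraries at 24 h, FOSB falls over time in each line, and FOSL1 never exceeds 7 reads.

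Several members moved with time in DMSO alone, in 12 of 32 tests, 3 higher and 9 lower, where 11.6% of all gene tests over these 4 comparisons were called higher and 10.9% lower. By comparison, the shares higher and lower were 4.44% and 3.95% from 3 to 6 h and 16.9% and 15.9% from 3 to 24 h in TMD8, and 4.19% and 4.93% and then 20.7% and 19% in HBL1. From 3 to 6 h in TMD8, BATF and FOSL2 (1.22, SE 0.34, adjusted p = 0.015) were higher and JUND was lower (-0.94, SE 0.25, adjusted p = 0.02). From 3 to 24 h in TMD8, JUN (-0.91, SE 0.25, adjusted p = 0.0051), JUND (-1.06, SE 0.25, adjusted p = 0.002), FOS and FOSB were lower. FOS went from 50 reads in the DMSO pair to 0, which, taking 3 reads over both libraries as the floor, is at least 20.2-fold lower. FOSB went from 69 reads to 1, a ratio of 83.6 with an exact 95% counting interval of 14.51 to 3347. In HBL1 BATF3 was higher at 6 h than at 3 h (0.74, SE 0.24, adjusted p = 0.038).

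At 24 h in HBL1, JUNB (-0.40, SE 0.15, adjusted p = 0.032), JUND (-0.78, SE 0.24, adjusted p = 0.012), FOSB (-2.41, SE 0.64, adjusted p = 7.2e-04) and FOSL2 (-1.58, SE 0.30, adjusted p = 2.3e-05) were lower than at 3 h. JUND and FOSB were therefore called lower from 3 to 24 h in each line. The calls of BATF, FOS and both of FOSB over time and that of FOSL2 at 24 h in HBL1 and JUND at 24 h in TMD8 remained without any 1 library. JUN in TMD8 at 24 h was lost without TMD8 DMSO 3 h replicate 1 (-0.59, adjusted p = 0.16) or 24 h replicate 2, JUND in HBL1 without DMSO 3 h replicate 2 (-0.51, adjusted p = 0.17) or either 24 h library, and JUNB in HBL1 without DMSO 3 h replicate 2 or either 24 h library (adjusted p 0.059 to 0.18). At 6 h the calls of JUND in TMD8 (0.058 to 0.14, any of 4 libraries), FOSL2 in TMD8 (0.059 to 0.28, either 3 h library or 6 h replicate 1) and BATF3 in HBL1 (0.13 to 0.31, either 3 h library or 6 h replicate 1) were lost as well. BATF3 at 6 h in HBL1 also lost its call with DESeq2 and with the lines fitted separately (0.076 each), and so did JUND at 24 h in HBL1 with separate fits (0.062).

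The lines differed in most members under DMSO, in 20 of 24 tests, where 32.7% of all gene tests were called higher in TMD8 and 32.8% lower. Line differences were thus frequent over all genes too, and the 24 tests were of the same 8 members at 3 times. BATF, BATF3 and JUN were higher in TMD8 at all 3 times, and JUNB and FOSL2 were lower. JUN differed by 3.13 (SE 0.32, adjusted p = 3.2e-10) at 3 h, 3.40 (SE 0.30, adjusted p = 1.6e-11) at 6 h and 2.79 (SE 0.37, adjusted p = 3e-08) at 24 h. BATF was 0.36 (SE 0.10, adjusted p = 0.0013), 1.12 (SE 0.09, adjusted p = 2.2e-14) and 0.46 (SE 0.10, adjusted p = 4.5e-05) higher in TMD8. FOSL2 was lower in TMD8 by differences of -1.95 (SE 0.33), -0.87 (SE 0.27) and -1.04 (SE 0.39). JUNB was lower in TMD8 by a smaller step, -0.62 (SE 0.16), -0.34 (SE 0.15) and -0.45 (SE 0.16), with adjusted p of 6.1e-04, 0.046 and 0.012.

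FOS changed sides between the lines. It was higher in TMD8 at 3 h (1.65, SE 0.52, adjusted p = 0.0036), and at 24 h it had 0 reads in the TMD8 DMSO pair and 12 in that of HBL1, at least 4.31-fold lower in TMD8. FOSB at 24 h had 1 read in the TMD8 pair and 12 in that of HBL1, a ratio of 12.9 with an exact 95% counting interval of 1.91 to 553 (adjusted p = 0.02). Without TMD8 DMSO 24 h replicate 1, which held that read, its fitted difference went from -3.37 to -5.61, and neither value is a bound. Of the line calls, that of JUNB at 6 h was lost without either TMD8 DMSO 6 h library or HBL1 DMSO 6 h replicate 2 (-0.11, adjusted p = 0.63, without the last), with DESeq2 (0.059) and with a stricter filter (0.05). At 24 h JUNB was lost without replicate 1 of either line (0.093 to 0.18), BATF3 without HBL1 replicate 2 (0.38, adjusted p = 0.21), JUND without any of 4 libraries (0.11 to 0.15), with RLE size factors (0.05) and with a stricter filter (0.058), and FOSB and FOSL2 without HBL1 replicate 1 or TMD8 replicate 2 (0.073 to 0.15). At 3 h FOS was lost without TMD8 replicate 2 (0.073) and BATF without HBL1 replicate 2 (0.05), and at 6 h BATF3 without TMD8 replicate 1 or HBL1 replicate 2 (0.078 to 0.085) and FOSL2 without TMD8 replicate 2 (0.095). Without HBL1 DMSO 24 h replicate 1 the BATF3 difference was 1.04, without HBL1 DMSO 6 h replicate 1 that of JUNB at 6 h was -0.54, and without TMD8 DMSO 24 h replicate 1 that of JUNB at 24 h was -0.30.

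The compound effect itself was compared between the lines in 9 comparisons, with 3 calls in 72 tests, all lower in TMD8, where 0.569% of all gene tests were called lower and 0.74% higher. All 3 were for acalabrutinib at 24 h, where 2% of all genes were called lower: BATF, BATF3 and JUNB. The acalabrutinib effect on JUNB was -1.74 in TMD8 and -0.46 in HBL1, a difference of -1.28 (SE 0.26, adjusted p = 9.2e-04). For BATF it was -1.90 and -1.12, a difference of -0.78 (SE 0.15, adjusted p = 3.6e-04), and for BATF3 -2.66 and -1.21, a difference of -1.45 (SE 0.43, adjusted p = 0.034). With NGI-1 and copanlisib at 24 h the same 3 genes gave differences that did not pass, the largest being -0.76 (SE 0.25, adjusted p = 0.067) for JUNB with copanlisib, as the plot of changes at 24 h in both lines shows. That JUNB difference passed without the filter on low counts (-0.81, adjusted p = 0.011) and with a stricter filter (-0.82, adjusted p = 0.044). The BATF3 difference between lines was lost without 5 libraries, each TMD8 DMSO 24 h replicate, TMD8 acalabrutinib 24 h replicate 1, HBL1 DMSO 24 h replicate 2 and HBL1 acalabrutinib 24 h replicate 2 (adjusted p 0.068 to 0.23), and those of BATF and JUNB remained without any 1 of their libraries.

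**Figure D5:**
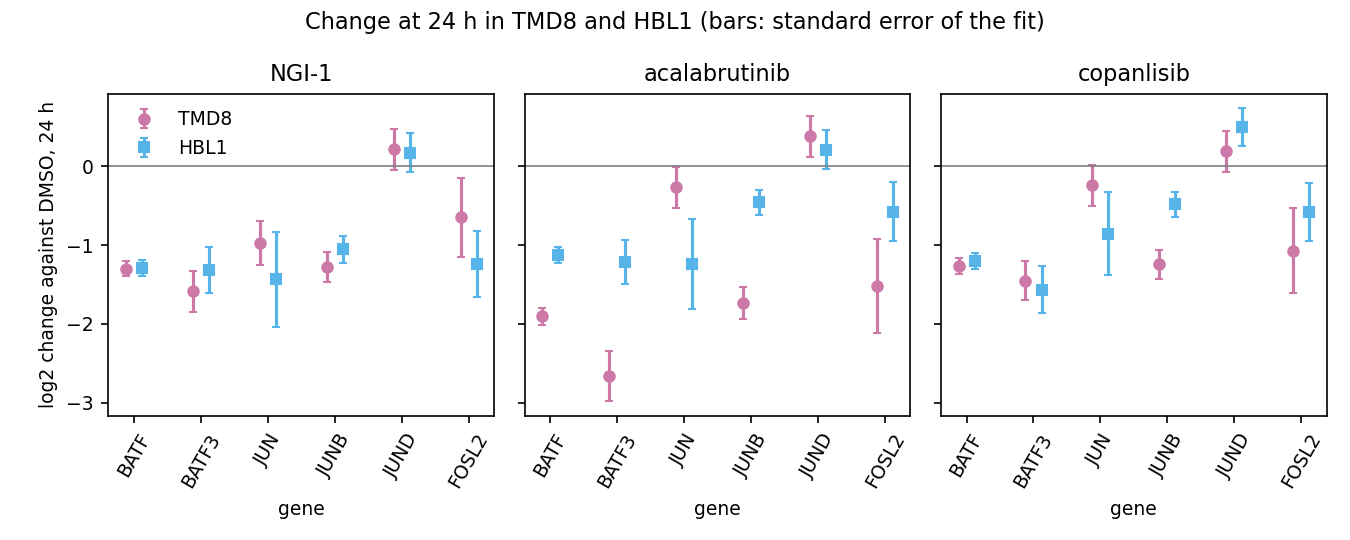
Log2 change against DMSO at 24 h (vertical axis) of 6 members in TMD8 (circles) and HBL1 (squares) for each compound, with bars for the standard error of the fit. With acalabrutinib BATF, BATF3 and JUNB lie lower in TMD8 than in HBL1, by 0.78, 1.45 and 1.28 on the log2 scale, and with NGI-1 the BATF points lie within 0.01 of each other.

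The effect at 24 h was compared with that at 3 h in 6 comparisons. There were 11 calls in 48 tests in the fit used here, all towards a lower level at 24 h, where 4.98% of all gene tests were called lower and 4.24% higher. The share lower was 5.96% in TMD8 and 2.54% in HBL1 with NGI-1, 7.8% and 2.03% with acalabrutinib, and 5.86% and 5.72% with copanlisib. Under other settings JUND was called towards a higher level in TMD8. Without the filter on low counts the differences were 0.58 (NGI-1, adjusted p = 0.0099) and 0.49 (acalabrutinib, 0.031). With the lines fitted separately they were 0.60 (0.019) and 0.52 (0.035). Without that filter JUNB with NGI-1 in each line (-0.67 and -0.70) and JUN with NGI-1 in HBL1 (-1.86) were also called lower. DESeq2 called that of JUN too (-1.85). BATF passed in all 6, with differences from -1.60 (SE 0.14, adjusted p = 1.9e-11, acalabrutinib, TMD8) to -0.77 (SE 0.14, adjusted p = 1.3e-04, copanlisib, TMD8). BATF3 passed in 4, in TMD8 with NGI-1 (-1.85, SE 0.34, adjusted p = 1.2e-04), acalabrutinib (-2.41, SE 0.39, adjusted p = 8.7e-06) and copanlisib (-1.04, SE 0.34, adjusted p = 0.039), and in HBL1 with copanlisib (-1.38, SE 0.40, adjusted p = 0.017). JUNB passed in 1, acalabrutinib in TMD8 (-0.91, SE 0.27, adjusted p = 0.015). The JUNB call was lost without TMD8 acalabrutinib 3 h replicate 1, acalabrutinib 24 h replicate 2 or DMSO 24 h replicate 2 (adjusted p 0.056 to 0.1). For BATF3 with copanlisib the call in TMD8 was lost without any 1 of 6 of its 8 libraries, those other than copanlisib 3 h replicate 1 and copanlisib 24 h replicate 1 (0.076 to 0.23), and with DESeq2 (0.066), and the call in HBL1 without copanlisib 3 h replicate 1, copanlisib 24 h replicate 2, DMSO 3 h replicate 2 or DMSO 24 h replicate 1 (0.067 to 0.2).

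Compounds were set directly against each other at the same line and time in 18 comparisons, each compound at its 1 dose. The 144 tests gave 10 calls, 3 higher and 7 lower, where 0.82% and 1.33% of all gene tests were called. BATF was lower with acalabrutinib than with NGI-1 in TMD8 at 24 h (-0.61, SE 0.11, adjusted p = 3.7e-04) and higher with copanlisib than with acalabrutinib (0.64, SE 0.11, adjusted p = 3.2e-04). In HBL1 at 6 h it was lower than with NGI-1 under acalabrutinib (-0.49, SE 0.10, adjusted p = 0.0017) and copanlisib (-0.75, SE 0.10, adjusted p = 8.3e-07). Copanlisib at 6 h in HBL1 also gave less JUNB (-0.62, SE 0.16, adjusted p = 0.012) and FOSL2 (-1.04, SE 0.30, adjusted p = 0.021) than NGI-1, and at 3 h less FOSL2 (-0.93, SE 0.27, adjusted p = 0.04). At 24 h in HBL1 the signs for JUNB were opposite. JUNB was then higher with acalabrutinib (0.60, SE 0.17, adjusted p = 0.045) and copanlisib (0.57, SE 0.17, adjusted p = 0.044) than with NGI-1.

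Most of these differences between compounds were lost without 1 library. BATF in HBL1 at 6 h with copanlisib and BATF in TMD8 at 24 h with acalabrutinib against NGI-1 remained without any. BATF for copanlisib against acalabrutinib was lost without TMD8 copanlisib 24 h replicate 1 (0.43, adjusted p = 0.18), and BATF for acalabrutinib against NGI-1 in HBL1 at 6 h without replicate 1 of either compound (0.066). The 24 h differences of JUNB in HBL1 were lost without any 1 of their libraries (0.077 to 0.32), and that against acalabrutinib also without edgeR's robust option (0.052). JUNB at 6 h was lost without HBL1 copanlisib 6 h replicate 1 or NGI-1 6 h replicate 2 (0.21 to 0.24), FOSL2 at 6 h without any of 4 libraries (0.085 to 0.13), and FOSL2 at 3 h without HBL1 copanlisib 3 h replicate 1 or either NGI-1 3 h library (0.057 to 0.47). DESeq2 gave 0.12 for FOSL2 at 3 h and 0.06 at 6 h.

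Across the 24 group means, centred within each line, Pearson r was 0.90 for BATF and JUNB, 0.89 for BATF and BATF3 and 0.82 for BATF3 and JUNB. FOS and FOSB had r = 0.89 and JUN and FOSL2 r = 0.88, and FOSL2 had r = 0.84 with BATF and 0.82 with JUNB. JUND had r of 0.08 to 0.22 with BATF3, BATF and JUNB. The search for alike genes covered those whose log2 CPM averaged 1 or more. The 3 most alike to BATF were GRAMD1B (r = 0.95), IRF4 (r = 0.94) and C17orf96 (r = 0.94), and to JUNB they were MYC (r = 0.94), DUSP2 (r = 0.94) and IL10 (r = 0.93). For BATF3 they were DNPEP, AATF and XPO5 (r = 0.94 to 0.95), for JUN EIF1AD, STAT3 and ZNF584 (r = 0.91), and for FOSL2 LOC221710, ZNF584 and FJX1 (r = 0.95). JUND was closest to ELL, RPL35A and TMEM55B (r = 0.90 to 0.92), FOS to SAR1A, PIP5K1A and GOSR1 (r = 0.92 to 0.94) and FOSB to ZDHHC5, LPIN1 and PRKAB1 (r = 0.96 to 0.98). These values describe 24 means that share lines, times and DMSO controls.

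Genes whose products pair with AP-1 proteins, switch them on or are described as their targets were followed in 4 lists. The 26 other bZIP factors, of which 23 were tested, were called in either direction. With NGI-1 in TMD8, 5, 5 and 4 of them were higher at 3, 6 and 24 h and 0, 1 and 2 lower, where 0.569%, 2.26% and 15.6% of all genes were called higher and 0.166%, 1.99% and 14.8% lower. In HBL1 NGI-1 gave 1 higher at each time and 0, 0 and 6 lower. Acalabrutinib gave 0, 0 and 3 higher and 0, 2 and 6 lower in TMD8, and 0, 0 and 2 higher and 0, 5 and 5 lower in HBL1. With copanlisib 0, 0 and 4 were higher and 0, 3 and 7 lower in TMD8, and 0, 0 and 2 higher and 1, 4 and 9 lower in HBL1, beside the shares of all genes given with the numbers of lower members. XBP1, the factor of the unfolded protein response, was higher with NGI-1 in all 6 comparisons, from 0.54 (SE 0.12, adjusted p = 0.028) in HBL1 at 3 h to 1.73 (SE 0.13, adjusted p = 4.2e-11) in TMD8 at 3 h. MAFK, a small MAF protein, was lower in 9 of 18 comparisons, by -0.99 with copanlisib in TMD8 at 6 h. NFE2L1, which acts in proteasome gene expression, was called in 6 comparisons and was higher with NGI-1 in TMD8 at 3 h (0.71) and 6 h (0.63). BACH1, a repressor that pairs with small MAF proteins, was higher in 5 comparisons at 24 h, by 0.30 to 0.51. At 24 h the list had a median between -0.21 and 0.08, and all genes had medians of -0.02 to 0.03 over the 18 comparisons.

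IRF4, with which BATF dimers bind DNA, was lower in 10 of 18 comparisons. Its difference at 24 h was -1.33 (SE 0.13, adjusted p = 7.9e-09) with acalabrutinib in TMD8 and -0.47 (SE 0.13, adjusted p = 0.014) with NGI-1 in HBL1, at the ends of the range at that time. It belongs to a list of 12 tested IRF, ETS and lymphoid factors. At 24 h 3 to 7 of these were higher and 1 or 2 lower in each comparison. Over all genes 7.53% to 15.6% were called higher at that time and 11.4% to 17.7% lower. The list median at 24 h lay between 0.08 and 0.34. ETS1 was higher at 24 h with each compound, by 0.87, 0.83 and 0.86 in TMD8 and 0.66, 0.59 and 0.75 in HBL1. ETV6, an ETS repressor, was higher in 8 comparisons. SPIB, an ETS factor of B cells, was called in 11 and moved down early and up late, as with copanlisib in TMD8 (-0.70 at 3 h and 0.20 at 24 h) and HBL1 (-0.34 and 0.37).

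Signalling genes were followed as a list of 25 genes of the JNK and ERK pathways, all tested. At 24 h 1 to 5 were higher and 2 to 6 lower, where 7.53% to 15.6% of all genes were called higher and 11.4% to 17.7% lower, and the median lay between -0.08 and 0.04. At 6 h 3 were higher with copanlisib in TMD8 and 2 were lower with acalabrutinib in each line and with copanlisib in HBL1, and at 3 h 1 was called in 1 of 6 comparisons. MAP3K1, a kinase above JNK, was called in 8 of 18 comparisons and was higher at 24 h by 0.42 to 0.84. RASGRP1, an activator of RAS, was lower in HBL1 at 24 h by -1.67, -1.82 and -1.55 with NGI-1, acalabrutinib and copanlisib. SRF, which acts at the FOS promoter, was lower at 24 h in all 6 comparisons, by -0.55 to -0.33. RASGRP3, a relative of RASGRP1, was called in 5, higher in 3 at 24 h and lower in 2 at 6 h.

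Described AP-1 targets, 19 of 21 tested, had 0 to 14 lower and 0 to 2 higher calls per comparison. Over all genes 0% to 17.7% were called lower and 0% to 15.6% higher. No target was called in 3 comparisons, NGI-1 at 3 h in each line and at 6 h in HBL1. At 3 h 0 to 9 targets were lower, against 0% to 1.37% of all genes, and at 24 h 6 to 11, against 11.4% to 17.7%. At 6 h in TMD8, 7, 10 and 14 of them were lower with NGI-1, acalabrutinib and copanlisib and 0 higher, where 1.99%, 2.8% and 7.42% of all genes were called lower. In HBL1 at 6 h the counts were 0, 9 and 10 lower and 0, 1 and 0 higher, against 0.072%, 3.16% and 5.34%. The list median over the 18 comparisons lay between -1.06 (acalabrutinib, TMD8, 6 h) and -0.15 (NGI-1, HBL1, 3 h). TNF was lower in 15 of 18, from -4.46 (SE 0.19, adjusted p = 4.7e-21) with copanlisib in TMD8 at 6 h, MYC and LTA in 14 each and IL10 in 12, from -4.45 (SE 0.60, adjusted p = 5.5e-09) with acalabrutinib in TMD8 at 24 h. These genes answer to other factors too, and the list was written with earlier results of these data known, so it is no independent evidence of direction.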

How the data were processed

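RNA was sequenced in 48 libraries, 2 for each of 24 groups of line, treatment and time. The authors deposited 1 table of read counts per gene, made with HTSeq on hg19 per the submitters' processing notes; the aligner, the versions and whether counting used strand are not given in the sources used here. Of the reads, 0.815% fell on 3449 genes without an ID.

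Counts were used as deposited with edgeR 4.0.16 in R 4.3.3: TMM scaling, filterByExpr by group, 1 fit over all 24 groups (estimateDisp, glmQLFit with its robust option, glmQLFTest) and Benjamini-Hochberg adjustment over all 13881 tested genes within each of 58 comparisons. A call is an adjusted p under 0.05. Fits without 1 library kept the dispersion trend of all 48 libraries and assume that a lone sample varies like the other groups. Between replicates, the chi-square per degree of freedom was 2.543 to 8.606, so none were counted as 1 library.

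The members and lists were chosen with earlier results of these data known. Named without being members were the 4 genes of each pathway list with the most calls over 18 comparisons with DMSO and the 3 genes most alike to each member. Alternatives were DESeq2 1.42.0, RLE size factors, other filters, lines fitted separately, a replicate block, no robust option and each library left out. The test was checked on simulated counts with the same dispersion for every gene and 200 changed genes. That setting cannot speak to spread that differs between genes or to the filter on low counts. Intervals and floors (3 reads, 95% level) cover counting error only. Promoter sequences and coordinates are of GRCh38.p14, another build than the counts. Some genes are not reported here and were left out of the lists.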

Additional observations from a re-analysis of the deposited data

Results flagged for a closer look

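Effects of a compound on a member that differed between lines or times by the test of that difference (edgeR's quasi-likelihood test, Benjamini-Hochberg adjusted) are gathered here as values. Between TMD8 and HBL1 at 24 h the acalabrutinib effect differed by -0.78 for BATF, -1.45 for BATF3 and -1.28 for JUNB, where 2% of all genes were called lower. Between 24 and 3 h the effect on BATF differed by -0.96 with NGI-1 in TMD8 and -1.08 in HBL1, by -1.60 and -0.81 with acalabrutinib, and by -0.77 and -0.86 with copanlisib. For BATF3 the difference over time in TMD8 was -1.85 with NGI-1, -2.41 with acalabrutinib and -1.04 with copanlisib, and in HBL1 -1.38 with copanlisib. For JUNB it was -0.91 with acalabrutinib in TMD8. In these time comparisons 2.03% to 7.8% of all genes were called lower.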

How the results depend on the processing

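Of 97 member changes called, 84 remained called under every alternative that kept all libraries and 53 also without any 1 library. Of 747 values under the first kind of alternative, 729 kept their direction and side of the threshold, 18 missed the threshold and 0 changed direction; of 444 values without 1 library the numbers were 327, 117 and 0. By member, calls against DMSO that remained without any 1 library were 11 of 12 for BATF, 9 of 12 for JUNB, 4 of 8 for BATF3, 1 of 5 for FOSL2 and 0 of 4 for JUN. Without 1 library the number of calls, counted in either direction, fell in some fits for every kind of comparison. For acalabrutinib and for copanlisib against DMSO the number also rose in some fits. Without a filter there were 8 calls for the line difference (3 with it) and 16 between compounds (10), and the cause was not tested. The labels do not pair the replicate numbers. Deviations of same-numbered samples from their group means correlated between compound and DMSO at 0.0467 to 0.2373 over 18 pairs of groups. With the replicate number as a block within line and time, the calls were 21 for NGI-1 (11 without it), 21 for acalabrutinib (13), 26 for copanlisib (17), 10 for the line difference (3), 21 for the time difference (11) and 23 between compounds (10); with a block within line the line difference had 6. Over all genes a comparison with DMSO had 31 to 4382 calls without a block and 171 to 5837 with the block within line and time. Under the latter the counts against DMSO include higher calls of JUND, with NGI-1 (0.25) and copanlisib (0.35) at 3 h in HBL1 and, at 24 h, with acalabrutinib in TMD8 (0.39) and HBL1 (0.21) and copanlisib in HBL1 (0.50), and lower ones at 3 h in TMD8 with NGI-1 (-0.39) and copanlisib (-0.28). With the block within line JUND was higher with copanlisib in HBL1 at 24 h (0.49, adjusted p = 0.031). JUN was lower at 3 h in TMD8 with each compound under either block. FOS gained a call with NGI-1 under the block within line and time. The cause was not tested. Low counts limit FOS, FOSB and FOSL1, and FOSL2 in TMD8 at 24 h.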
